A study of Homo sapiens with 16 samples.

Results

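Constant distal SMAD3 sites are the places away from gene ends where SMAD3 was found in H69 cells both with and without added TGF-beta. Peaks of the 4 SMAD3 libraries were merged wherever they overlapped by at least 1 bp, which gave 38390 regions on chromosomes 1 to 22 and X. Members were chosen by these peak calls: a region was kept when it was called in all 4 libraries and lay more than 1 kb from both ends of every RefSeq protein-coding gene. The rule held 4488 sites, 11.7% of all regions, while another 11510 regions called in all 4 libraries lay at gene ends. The presence and extent of SMAD3 at these sites follow in part from the rule and are given as description only, and the tests below are on histone acetylation, which the rule did not use.

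H69 is a line of transformed human cholangiocytes, the epithelial cells of the bile duct. The vehicle group received no TGF-beta, and the TGF-beta group received recombinant human TGF-beta at 10 ng/ml for 16 h; the labels name no other difference between the groups, except a slightly wider passage range for 1 SMAD3 library of the TGF-beta group. Each of SMAD3, H3K27ac and H3K9ac was profiled by chromatin immunoprecipitation and sequencing (ChIP-seq) in 2 libraries per group; those of SMAD3 bear the numbers 4 and 5 and those of the acetylation marks 1 and 2. The labels give passages of the one line and do not say that replicates were separate cultures, so the p-values measure only the spread between these libraries, which may be technical.

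TGF-beta binds paired receptor kinases at the cell surface, which phosphorylate SMAD2 and SMAD3. The phosphorylated proteins join SMAD4, move into the nucleus and bind DNA beside other transcription factors, often at enhancers that those factors hold open. SMAD3 reads a short motif, the SMAD box, and also GC-rich sequence. H3K27ac marks active enhancers and promoters, and H3K9ac is usually strongest at promoters. In bile ducts TGF-beta is known for its part in fibrosis and in the loss of epithelial features.

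The SMAD3 libraries listed 22451 and 25268 peaks without and 33700 and 34413 after TGF-beta, the H3K27ac libraries 82259 to 92714 and the H3K9ac libraries 54682 to 61297. The files hold peaks without read counts, so depth is unknown and the length of sequence inside peaks is used as the measure throughout. As a check of the labelled cell type, 6 of 8 epithelial and biliary marker genes, namely KRT7, KRT8, KRT18, KRT19, CDH1 and SOX9, had both marks at a gene end in all 8 libraries. EPCAM had an H3K27ac peak in 3 and an H3K9ac peak in 4 libraries. Of 20 markers of hepatocytes, mesenchymal cells, endothelium and leukocytes, 10 had neither mark in any library, among them ALB, THY1, PECAM1 and PTPRC. Another 6, APOA1, APOB, SERPINA1, PDGFRB, ACTA2 and CD14, had both in all 8; their part in the results was not tested.

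Distance from gene ends did not mean distance from transcript starts, since genes with several promoters have starts inside their span. Of the 4488 sites, 1092 (24.3%) lay within 1 kb of a start of a protein-coding transcript listed by RefSeq, 524 (11.7%) lay within 1 kb of a start of a long non-coding RNA (lncRNA) only, and 2872 (64.0%) had no listed start within 1 kb. The list holds a start for 15812 of 19974 coding genes (79.2%), so the counts at starts are minimums. Of the 3992 distal regions called only in both TGF-beta libraries, named gained here, 4.48% lay at a coding start and 4.63% at a lncRNA start only. Seen from the starts, 1181 of the 4697 coding starts that lie more than 1 kb from coding gene ends (25.1%) were inside a constant distal site, and 653 of 10372 such lncRNA starts (6.30%). "Distal" therefore means away from coding gene ends in what follows, and the sites without a listed start are given separately where it matters.

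**Figure D1:**
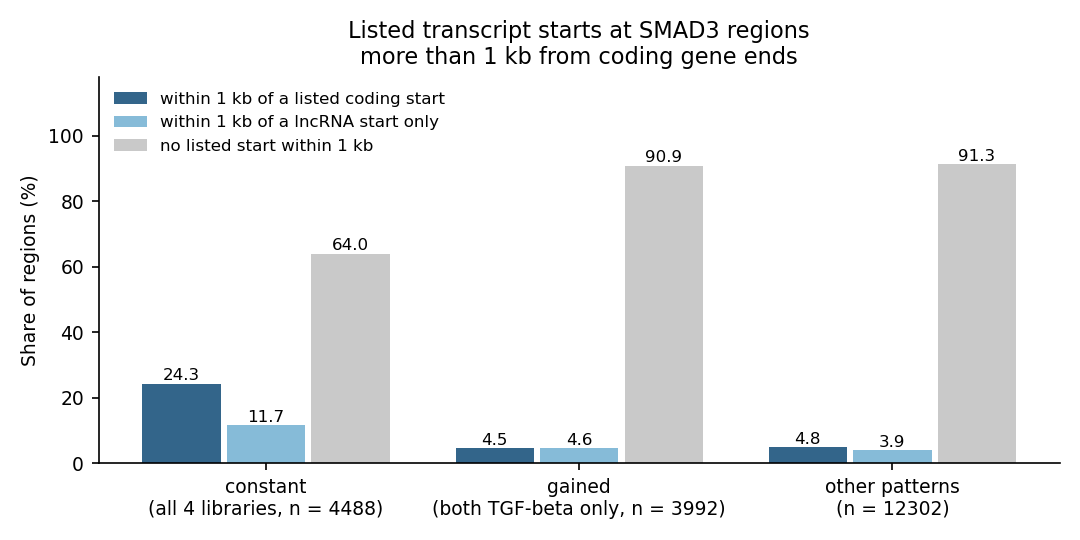
Share of SMAD3 regions more than 1 kb from coding gene ends (vertical axis, %) that lie within 1 kb of a listed coding start, of a lncRNA start only, or of neither, for constant, gained and other regions. The coding share is 24.3% in constant regions and under 5% in the others.

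The DNA at these starts is shown for 4 of the 10 sites with the highest SMAD3 scores in their weakest library, together with TNFAIP2, a site where SMAD3 score rank and both marks were lower with TGF-beta. The window runs from 250 bases before to 50 bases after the listed start, from RefSeq on GRCh38.p14, written 5′ to 3′ on the gene's strand. Capitals mark the SMAD box CAGAC (or GTCTG on the other strand) and the GC-rich SMAD motif GGCGC (or GCGCC). DNAJB1, which encodes a heat shock co-chaperone, is shown at chr19:14517888-14518187 on the minus strand. HNRNPH1, which encodes an RNA-splicing factor, is shown at chr5:179623622-179623921 on the minus strand. PCNA, the sliding clamp of DNA replication, is shown at chr20:5119909-5120208 on the minus strand. PTPRA, a receptor tyrosine phosphatase, is shown at chr20:2873231-2873530 on the plus strand, and TNFAIP2, a TNF-induced gene, at chr14:103123211-103123510 on the plus strand.
DNAJB1: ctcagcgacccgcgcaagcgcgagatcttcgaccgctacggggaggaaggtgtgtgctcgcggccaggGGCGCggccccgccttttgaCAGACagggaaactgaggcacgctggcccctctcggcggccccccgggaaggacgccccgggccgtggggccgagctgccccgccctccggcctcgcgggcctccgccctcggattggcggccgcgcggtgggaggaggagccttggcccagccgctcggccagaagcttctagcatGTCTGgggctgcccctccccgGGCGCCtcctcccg
HNRNPH1: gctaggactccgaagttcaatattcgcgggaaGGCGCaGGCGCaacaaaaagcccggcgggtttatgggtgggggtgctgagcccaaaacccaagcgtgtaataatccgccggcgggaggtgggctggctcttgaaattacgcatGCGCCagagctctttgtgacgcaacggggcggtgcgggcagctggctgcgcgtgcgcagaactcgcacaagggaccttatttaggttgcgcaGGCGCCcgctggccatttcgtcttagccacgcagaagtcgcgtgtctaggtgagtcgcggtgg
PCNA: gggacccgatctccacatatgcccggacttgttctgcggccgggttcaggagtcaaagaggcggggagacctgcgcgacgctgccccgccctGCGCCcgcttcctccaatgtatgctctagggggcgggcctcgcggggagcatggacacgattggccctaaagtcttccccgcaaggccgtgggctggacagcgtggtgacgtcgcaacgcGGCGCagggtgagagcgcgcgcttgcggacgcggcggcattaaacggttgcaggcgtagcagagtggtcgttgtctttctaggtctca
PTPRA: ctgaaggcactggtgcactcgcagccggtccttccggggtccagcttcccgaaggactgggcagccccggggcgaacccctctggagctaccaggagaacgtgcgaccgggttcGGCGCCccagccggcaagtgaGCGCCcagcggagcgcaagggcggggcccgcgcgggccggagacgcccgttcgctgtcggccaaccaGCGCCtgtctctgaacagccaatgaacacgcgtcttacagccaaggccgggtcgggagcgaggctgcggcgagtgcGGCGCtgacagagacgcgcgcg
TNFAIP2: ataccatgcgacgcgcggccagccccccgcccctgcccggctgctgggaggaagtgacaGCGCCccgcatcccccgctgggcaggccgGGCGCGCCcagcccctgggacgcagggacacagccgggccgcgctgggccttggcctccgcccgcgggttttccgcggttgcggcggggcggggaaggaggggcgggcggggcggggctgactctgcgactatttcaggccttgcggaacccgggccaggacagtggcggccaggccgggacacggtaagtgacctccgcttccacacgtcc

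All 5 windows lay wholly inside their SMAD3 site and were rich in GC. GC content was 75.3% at DNAJB1 with 36 CpG dinucleotides, 61.3% at HNRNPH1 with 30, 65.7% at PCNA with 33, 71.7% at PTPRA with 38 and 75.7% at TNFAIP2 with 35. The SMAD box occurred 2 times at DNAJB1 and 0 times in the other printed windows, while GGCGC occurred 3 times at DNAJB1 and TNFAIP2, 5 times at HNRNPH1 and PTPRA and 2 times at PCNA. DNAJB1 and HNRNPH1 have further listed starts at these sites that are not printed. The HNRNPH1 window at chr5:179624551-179624850 held 2 SMAD boxes and 0 GGCGC, with 54.7% GC. Its window at chr5:179623352-179623651 held 0 and 1, with 66% GC. The DNAJB1 window at chr19:14518348-14518647 held 0 and 3, with 78.7% GC.

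High GC content was also found over all 1194 start windows that lay wholly inside a constant distal site. Their median GC content was 69% and their median ratio of observed to expected CpG 0.847, against 58.7% and 0.578 over the 34789 listed windows scored. GGCGC was found in 82.7% of them and in 48.5% of all windows, and the SP1-type GC box GGGCGG in 76.0% and 44.9%. The SMAD box CAGAC was no more frequent than in the list as a whole, at 45.0% against 45.3%. The AP-1 motif TGANTCA was found in 4.44% against 7.69%, and TATAAA in 3.52% against 11.6%. Every motif was searched on both strands. A match is a description of the letters, and GGCGC and GGGCGG, which can overlap, are made of G and C only. The 30 start windows wholly covered by a gained distal region had a median GC content of 60.7% and held GGCGC in 46.7% and TGANTCA in 16.7%. The 8820 start windows in constant regions at gene ends resembled those of the constant distal sites, with 68% GC and GGCGC in 85.3%.

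Some sites cover genes of miRNAs, short RNAs that pair with target messages through their seed and lower their output. Of 1558 listed miRNA hairpins, 31 (1.99%) lay wholly inside 30 constant distal sites. Sequences are shown for 4 well-known miRNAs, chosen after their values were seen, whose hairpins lie away from the ends of coding genes; capitals mark the seed, bases 2 to 8. The let-7i hairpin lies at chr12:62603686-62603769 on the plus strand, in a site 1620 bp from MON2. The miR-210 hairpin lies at chr11:568089-568198 on the minus strand, the miR-193a hairpin at chr17:31559996-31560083 on the plus strand and the miR-152 hairpin at chr17:48037161-48037247 on the minus strand, inside COPZ2.
hsa-let-7i-5p: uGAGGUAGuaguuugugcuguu
hsa-miR-210-3p: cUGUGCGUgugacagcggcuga
hsa-miR-193a-3p: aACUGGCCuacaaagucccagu
hsa-miR-152-3p: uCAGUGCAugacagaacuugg

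The 4 miRNAs have different seeds. Their SMAD3 sites carried H3K27ac and H3K9ac in all 8 libraries, and neither mark passed the test there. The log2 change of H3K27ac was 0.08 at let-7i, 0.35 at miR-210, -0.12 at miR-193a and -0.08 at miR-152. miR-210 is known as a miRNA induced by low oxygen.

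The sites were spread over every chromosome examined, with most on chromosomes 1 (418), 19 (398) and 17 (367). Their median length was 771 bp (range 179 to 10032), and the median distance to the nearest coding gene end was 10886.5 bp, with 733 sites over 50 kb away. Inside a coding gene lay 2473 sites (55.1%); exon or intron is not known from the annotation used. With the nearest coding gene within 50 kb, 4097 sites were assigned to 2874 genes, 14.4% of all coding genes, and 391 sites had no such gene. A nearest gene is a position and not a target. At the limit of the rule, the 3 members nearest to it were sites of PRR7 at 1001 bp, MTURN at 1002 bp and PLIN1 at 1003 bp, with SMAD3 peak lengths of 163 to 758 bp across libraries. The 3 regions just short of it were at BRF1 (998 bp), BAHCC1 (997 bp) and LRFN1 (994 bp), with 158 to 886 bp.

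SMAD3 peaks covered more of the sites with TGF-beta. The median length inside a site was 411 and 545 bp in vehicle replicates 4 and 5 and 632 and 656 bp in TGF-beta replicates 4 and 5. Both TGF-beta libraries were longer than both vehicle libraries at 2392 sites (53.3%) and shorter than both at 232 (5.17%). The same shares over all regions were not computed. The shift was not particular to these sites. At constant regions at gene ends the median was 649 and 790 bp with vehicle and 863 and 893 bp with TGF-beta. All SMAD3 peaks of a library covered 11.2 and 14.5 Mb with vehicle and 19.6 and 19.6 Mb with TGF-beta. The authors' score was ranked within its own library, as a percentile. The median over the sites was 43.5 and 51.6 in the vehicle libraries and 64.3 and 65.3 in the TGF-beta libraries. The lists differ in length, so a shift in rank between the groups does not measure a change in SMAD3. Sites at coding starts were longer (median 946.5 bp) and had a higher lowest percentile over the 4 libraries (median 60.2) than sites with no listed start (712 bp and 36.2).

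Among the 10 sites with the highest lowest percentile were 7 where SMAD3 peak lengths overlapped or met between the groups, of which 5 are given here. At DNAJB1 (chr19:14517489-14518604) SMAD3 peaks covered 817 and 976 bp with vehicle and 1032 and 944 bp with TGF-beta, and the groups overlapped. At HNRNPH1 (chr5:179622998-179624819) they covered 1567 and 1727 bp with vehicle and 1633 and 1567 bp with TGF-beta, again with overlap. At PTPRA (chr20:2872494-2874299) they covered 1461 and 1675 bp with vehicle and 1497 and 1549 bp with TGF-beta. The PCNA site (chr20:5119099-5120486) held 970 and 1228 bp with vehicle and 1368 and 1228 bp with TGF-beta. BBC3, which encodes the pro-apoptotic protein PUMA, held 2173 and 2523 bp with vehicle and 2457 and 2535 bp with TGF-beta at chr19:47225995-47228529. Of these 10 top sites, BBC3 was the only one where an acetylation call was made. There H3K27ac peaks covered 3679 and 4043 bp of the window with vehicle and 3118 and 3153 bp with TGF-beta (log2 change -0.41, adjusted p = 0.0272 by limma), a fall that was lost without any single library, at adjusted p of 0.064 to 0.142.

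Nearly all of the sites were acetylated in both conditions. H3K27ac peaks overlapped 92.1% and 92.0% of the sites in the vehicle libraries and 92.4% and 92.4% in the TGF-beta libraries. For H3K9ac the vehicle libraries had 94.7% and 94.3% and the TGF-beta libraries 93.6% and 93.9%. The groups did not overlap for either mark, by differences of 0.334 and -0.680 percentage points (TGF-beta minus vehicle). An exact two-sided permutation test gave p = 0.3333 for each, the smallest p that 2 libraries against 2 allow. Both marks were present in all 8 libraries at 3997 sites (89.1%), against 61.7% of all SMAD3 regions, 94.2% of constant regions at gene ends and 49.3% of gained distal regions. By start, the share was 96.6% at coding starts, 95% at lncRNA starts and 85.1% with no listed start.

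**Figure D2:**
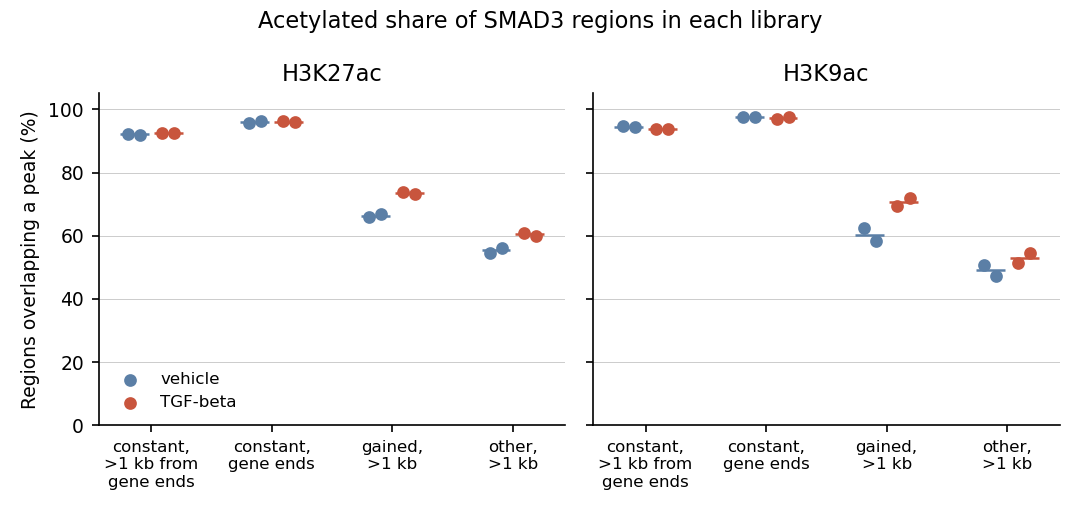
Share of SMAD3 regions that overlap a peak (vertical axis, %) of H3K27ac (left) or H3K9ac (right), with 1 point per library and a line at the mean of each group of 2 libraries. Constant distal sites lie between 92.0% and 94.7% in every library, near the constant regions at gene ends and above gained and other distal regions.

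Gain or loss of a whole acetylation peak was rare. A gain can only be seen where the vehicle libraries have no peak. H3K27ac was present in all 4 libraries at 90.2% of the sites, against 68.7% of all SMAD3 regions. H3K9ac was so at 93.1%, against 67.4%. Fewer of the constant distal sites could thus gain a peak, and the shares below are not limited to regions able to gain. H3K27ac overlapped 29 sites (0.646%) only in both TGF-beta libraries, against 2.87% of all SMAD3 regions. It overlapped 17 (0.379%) only in both vehicle libraries, against 0.662% of all regions. H3K9ac did so at 1 (0.022%) and 24 sites (0.535%), against 2.58% and 1.07% of all regions. At 22 of the 29 sites that gained H3K27ac, H3K9ac was present in all 4 of its libraries. These 22 were 0.490% of the sites, against 0.706% of all regions. No site gained both marks, against 0.719% of all regions, and 3 (0.067%) lost both, against 0.122%. H3K9ac was present in all its libraries without any H3K27ac at 49 sites (1.09%), against 2.17% of all regions. The converse held at 5 (0.111%), against 1.30%.

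To measure graded change, the length inside peaks was taken in a window of 2.5 kb on either side of each site's centre, so that a value cannot pass 5000 bp. Treatment was tested on the log2 of this length plus 200 bp with limma, over the windows of all 38390 regions whose mean length reached 200 bp; each library was first centred, and changes of low windows are understated on this scale, and where a group is at 0 bp the size of the change depends on the added 200 bp. A change is called at an adjusted p (Benjamini-Hochberg) under 0.05. Neighbouring windows overlap and are not independent.

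H3K27ac rose at 140 of 4162 tested constant distal sites (3.36%), where 9.78% of all tested SMAD3 regions rose. It fell at 278 sites (6.68%), near the 6.04% of all regions. H3K9ac rose at 82 of 4279 tested sites (1.92%) where 7.65% of all regions rose, and fell at 159 (3.72%) where 3.85% of all fell. The share that rose was thus below the background for both marks and the share that fell was close to it. Of gained distal regions, 28.5% and 28.0% rose in H3K27ac and H3K9ac. Constant regions at gene ends had still fewer calls. There H3K27ac rose at 1.94% and fell at 4.97%, and H3K9ac rose at 0.407% and fell at 1.53%. Few rises were thus not particular to the distal sites. The median log2 change over the sites was -0.11 for H3K27ac and -0.03 for H3K9ac, against -0.08 over all regions for H3K27ac. Of the 140 H3K27ac rises, 36 (25.7%) were also H3K9ac rises, 43.9% of the latter. Over all regions these shares were 44.8% and 56.5%. The 49 sites that fell in both marks were 17.6% of the H3K27ac falls and 30.8% of the H3K9ac falls. Over all regions these shares were 26.5% and 41.1%. No site rose in one mark and fell in the other. Over all regions, 4 rose in H3K27ac and fell in H3K9ac, and 0 did the reverse.

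Sites with no listed start held most of the calls. H3K27ac rose at 3.75% of them and at 2.42% of sites at coding starts, and H3K9ac at 2.66% and 0.550%. H3K27ac fell at 7.43% and 5.87%, and H3K9ac at 4.57% and 2.39%. Whether these shares differ was not tested. The sites called as H3K27ac rises formed 133 separate loci and those called as falls 251.

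Single libraries mattered to these calls. Of the 140 H3K27ac rises, 26 (18.6%) kept their call in each of the 4 fits that leave out 1 library, and of the 278 falls 38 (13.7%). For H3K9ac, 15 of 82 rises (18.3%) and 23 of 159 falls (14.5%) did. Without centring, H3K27ac rose at 170 sites and fell at 102, so that the order of rises and falls turned; H3K9ac rose at 17 and fell at 42. The uncentred medians of the H3K27ac libraries on the log2 scale were 11.11 and 11.19 for vehicle, against 11.30 and 11.26 for TGF-beta. TGF-beta replicate 2 of both marks came from another sequencing lane than the other acetylation libraries. Calls of both marks were fewer without it, on 1 lane only. They were also fewer without TGF-beta replicate 1, which keeps both lanes. In these fits the median log2 change over the sites was -0.12 and -0.10 for H3K27ac and -0.01 and -0.04 for H3K9ac. The part of the lane was not tested.

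**Figure D3:**
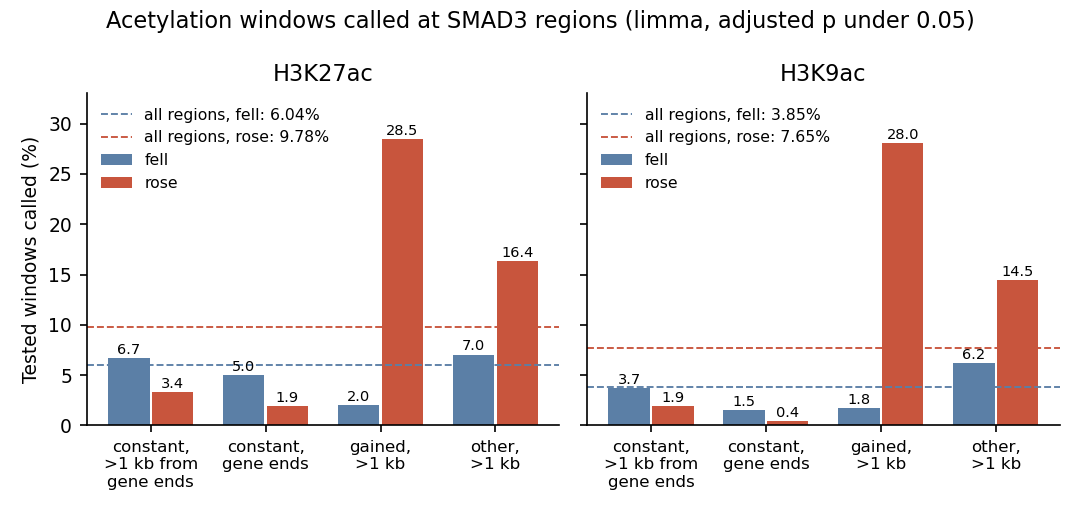
Share of tested windows called as fallen or risen (vertical axis, %) for H3K27ac (left) and H3K9ac (right) by class of SMAD3 region, with the share over all regions as dashed lines. Constant distal sites rose in 3.36% and 1.92%, below the dashed lines at 9.78% and 7.65%. Constant regions at gene ends rose in 1.94% and 0.407%.

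The largest H3K27ac rise was at a site 46746 bp from SNAI2, which encodes Slug, a repressor of epithelial genes. At that site (chr8:48870108-48870852) the window held 104 and 0 bp of H3K27ac peaks with vehicle and 2874 and 2665 bp with TGF-beta. The log2 change was 3.46 ± 0.24 (SE, 2 libraries per group, adjusted p = 0.00304), and H3K9ac rose from 794 and 893 bp to 1794 and 1809 bp (log2 change 1.00, adjusted p = 0.00836). SMAD3 peaks in the site covered 239 and 293 bp with vehicle and 517 and 673 bp with TGF-beta. Both marks and SMAD3 were longer in both TGF-beta libraries, although SMAD3 was called in every library. The H3K9ac call was lost without TGF-beta replicate 1 (adjusted p = 0.0508).

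LTBP4 encodes a protein that holds latent TGF-beta in the matrix. Its site (chr19:40597123-40597757) had no H3K27ac peak in the window in either vehicle library and 795 and 891 bp with TGF-beta (log2 change 2.25 ± 0.09, adjusted p = 0.000589). H3K9ac there covered 1680 and 1147 bp with vehicle and 1300 and 1461 bp with TGF-beta, and the groups overlapped. A neighbouring LTBP4 site shares this window and is not a separate result.

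FIGNL2, a relative of the microtubule-severing fidgetin proteins, went from 561 and 415 bp to 2937 and 2892 bp of H3K27ac (log2 change 2.06 ± 0.15, adjusted p = 0.00315). H3K9ac rose there too, from 1273 and 1128 bp to 2453 and 2770 bp. KLF13, a zinc finger transcription factor, went from 640 and 777 bp to 2732 and 2676 bp (1.55 ± 0.08, adjusted p = 0.00125). At the KLF13 site SMAD3 covered 443 and 442 bp with vehicle and 435 and 542 bp with TGF-beta, so that the SMAD3 groups overlapped while the H3K27ac groups lay far apart. The 4 H3K27ac calls at SNAI2, LTBP4, FIGNL2 and KLF13, were kept whichever library was left out. The rises at MYO1G (log2 1.89), RCC1 (1.76), TRIM56 (1.68) and RD3 (1.67) were lost without TGF-beta replicate 2. At MYO1G no H3K27ac peak overlapped the SMAD3 site itself in any library, so the rise lay elsewhere in the window.

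The largest H3K27ac falls ended in windows with no peak. TUBG1 encodes gamma-tubulin, which nucleates microtubules. At its site (chr17:42617336-42618854) H3K27ac peaks covered 1179 and 1052 bp with vehicle and 0 bp in both TGF-beta libraries (-2.85 ± 0.10, adjusted p = 0.000394). B3GALT6 encodes a galactosyltransferase that builds the linker of proteoglycan chains. At its site (chr1:1236784-1237994) H3K27ac went from 967 and 889 bp to 0 bp in both (-2.63 ± 0.09, adjusted p = 0.000372) and H3K9ac from 1511 and 1036 bp to 185 and 190 bp (-1.85, adjusted p = 0.00243). SMAD3 at the B3GALT6 site covered 185 and 920 bp with vehicle and 725 and 1211 bp with TGF-beta, with overlap between the groups.

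SORBS3 encodes vinexin, an adaptor of focal adhesions. In its window (site chr8:22551211-22552137) H3K27ac covered 2677 and 2828 bp with vehicle and 503 and 363 bp with TGF-beta (-2.36 ± 0.12, adjusted p = 0.0011). H3K9ac fell as well, from 3279 and 3330 bp to 1212 and 1513 bp (-1.11, adjusted p = 0.00375), and SMAD3 covered 714 and 869 bp against 401 and 610 bp. SORBS3 was thus a site where the peak lengths of all 3 were shorter in both TGF-beta libraries. The score rank of SMAD3 did not follow its length. Its percentile was 39.9 in replicate 4 and 48.1 in replicate 5 after TGF-beta. Vehicle replicates 4 and 5 stood at 22.1 and 42.6, so the groups overlapped in rank. The calls at TUBG1, B3GALT6 and SORBS3 were kept whichever library was left out. Falls at IVD (-2.04), an enzyme of leucine breakdown, SPHK2 (-2.05), a sphingosine kinase, TMEM229B (-1.84) and a chromosome 2 site with no coding gene within 50 kb (-1.83) also ended at 0 bp in both TGF-beta libraries, and each lost its call or fell out of the test in at least 1 fit that leaves out a library. At IVD, SPHK2 and the chromosome 2 site, no H3K27ac peak overlapped the SMAD3 site itself in any library. The fall there lay elsewhere in the window. The fall at MLXIPL, which encodes the glucose-responsive factor ChREBP, (-2.44) was lost without either vehicle library.

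**Figure D4:**
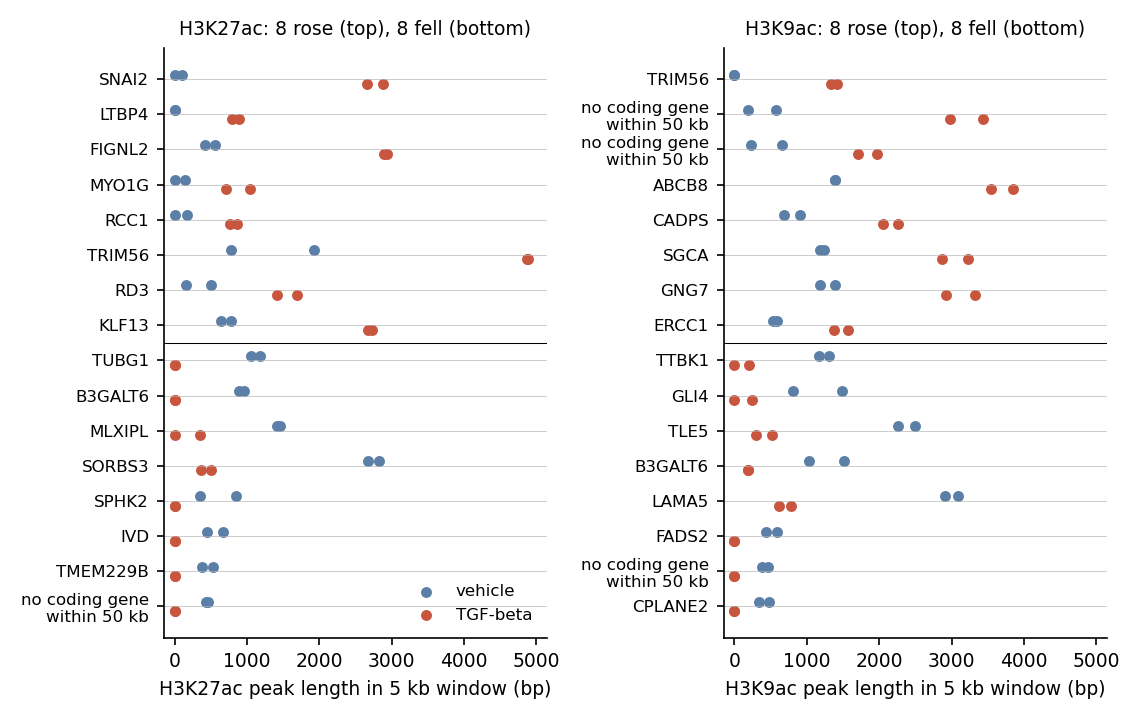
Peak length in the 5 kb window (horizontal axis, bp) of H3K27ac (left) and H3K9ac (right) in each of the 2 vehicle and 2 TGF-beta libraries, at the 8 sites with the largest called rise (above the line) and fall (below it), labelled by nearest coding gene. In every row the TGF-beta points lie outside the range of the vehicle points, as the choice of sites requires.

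SMAD3 was longer in both TGF-beta libraries than in both vehicle libraries at 53.3% of all constant distal sites. It was so at all 8 named sites with the largest H3K9ac rise. The largest was at a site of TRIM56, which encodes an E3 ubiquitin ligase. There (chr7:101094786-101096138) no H3K9ac peak lay in the window in either vehicle library, and 1335 and 1411 bp did with TGF-beta (3.03 ± 0.09, adjusted p = 0.000204). SMAD3 covered 154 and 1033 bp with vehicle and 1134 and 1188 bp with TGF-beta, and the H3K9ac call was kept whichever library was left out. At a site on chr20:1827565-1829221 with no coding gene within 50 kb, H3K9ac went from 576 and 184 bp to 2985 and 3432 bp (2.70 ± 0.30, adjusted p = 0.00703). H3K27ac rose there from 2249 and 2105 bp to 4830 and 4667 bp, and SMAD3 covered 205 and 210 bp with vehicle and 1421 and 1506 bp with TGF-beta. A site on chr11:13216204-13217180, also without a near coding gene, rose in H3K9ac from 661 and 235 bp to 1711 and 1964 bp (1.79 ± 0.29, adjusted p = 0.0218); this call was lost without either TGF-beta library (adjusted p = 0.0899 and 0.0844). Its H3K27ac rise, from 1536 and 1546 bp to 3703 and 4094 bp, was kept.

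A site nearest to SGCA, an alpha-sarcoglycan gene of muscle, lies 5047 bp from COL1A1, the gene of the alpha 1 chain of type I collagen. There H3K9ac rose from 1237 and 1182 bp to 2868 and 3232 bp (1.26, adjusted p = 0.00132) and H3K27ac from 1991 and 2142 bp to 4680 and 4698 bp (0.98, adjusted p = 0.00267). SMAD3 covered 402 and 416 bp with vehicle and 1588 and 1471 bp with TGF-beta. A site nearest to ERCC1, a DNA repair gene, lies 11450 bp from FOSB, which encodes an AP-1 subunit, and rose in H3K9ac from 592 and 534 bp to 1370 and 1576 bp (1.19, adjusted p = 0.00153). Rises at ABCB8 (1.35), a mitochondrial transporter gene, CADPS (1.31), a gene of vesicle exocytosis, and GNG7 (1.22), a G protein subunit gene, were kept whichever library was left out, as were those of the chromosome 20, SGCA and ERCC1 sites.

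H3K9ac fell most at TTBK1, a tau tubulin kinase gene, from 1175 and 1310 bp to 0 and 196 bp (-2.30 ± 0.29, adjusted p = 0.0106). It fell at TLE5, a gene of the Groucho family of co-repressors, from 2498 and 2257 bp to 292 and 526 bp (-2.05 ± 0.16, adjusted p = 0.00231). It fell at LAMA5, which encodes a laminin chain of basement membranes (chr20:62372561-62373019), from 3090 and 2908 bp to 782 and 614 bp (-1.78 ± 0.15, adjusted p = 0.00305). At LAMA5 H3K27ac fell too, from 2892 and 3345 bp to 1582 and 1402 bp (-1.10), while SMAD3 covered 164 and 195 bp with vehicle and 447 and 311 bp with TGF-beta. Less acetylation thus stood beside more SMAD3 length at this site. The falls at TTBK1, TLE5, B3GALT6 and LAMA5 were kept whichever library was left out. The fall at GLI4 (-2.06) was lost without TGF-beta replicate 1.

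At genes of the TGF-beta pathway, sites called in all 4 libraries differed in the extent of SMAD3 between the groups. PMEPA1 encodes an inhibitor of receptor-activated SMADs that sits in membranes. At its site (chr20:57747899-57749692) SMAD3 covered 207 and 233 bp with vehicle and 1716 and 1771 bp with TGF-beta. H3K27ac rose from 1324 and 1279 bp to 2942 and 3191 bp (0.99 ± 0.09, adjusted p = 0.00621), a call that was lost with windows of 1 kb on either side. H3K9ac covered 1316 and 1507 bp against 1733 and 1894 bp and did not pass (0.38, adjusted p = 0.123).

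SMAD7 encodes the inhibitory SMAD that shuts off the receptor. At its first site (chr18:48901232-48902753) SMAD3 covered 260 and 540 bp with vehicle and 1153 and 1473 bp with TGF-beta. H3K9ac rose there from 1029 and 1016 bp to 1626 and 1605 bp (0.63 ± 0.10, adjusted p = 0.019), a call lost without either TGF-beta library (adjusted p = 0.102 and 0.0544). H3K27ac covered 2057 and 2243 bp against 2936 and 3078 bp and did not pass (0.32, adjusted p = 0.0583). At the other SMAD7 site (chr18:48975293-48976737) SMAD3 covered 857 and 1107 bp against 1435 and 1295 bp, and neither mark passed (adjusted p = 0.0546 and 0.416 by limma).

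TGFBI encodes a matrix protein that binds integrins. At its site (chr5:136080209-136081074) SMAD3 covered 302 and 355 bp with vehicle and 846 and 783 bp with TGF-beta. H3K27ac covered 597 and 469 bp against 747 and 615 bp (0.14), and H3K9ac 1183 and 1246 bp against 839 and 1114 bp (-0.22, adjusted p = 0.344), so that neither mark passed. At these 4 sites SMAD3 was longer in both TGF-beta libraries than in both vehicle libraries, as at 53.3% of all constant distal sites. SKIL, KRT7, KRT19, SOX9, FOSL2 and JUNB had no constant distal site assigned to them.

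**Figure D5:**
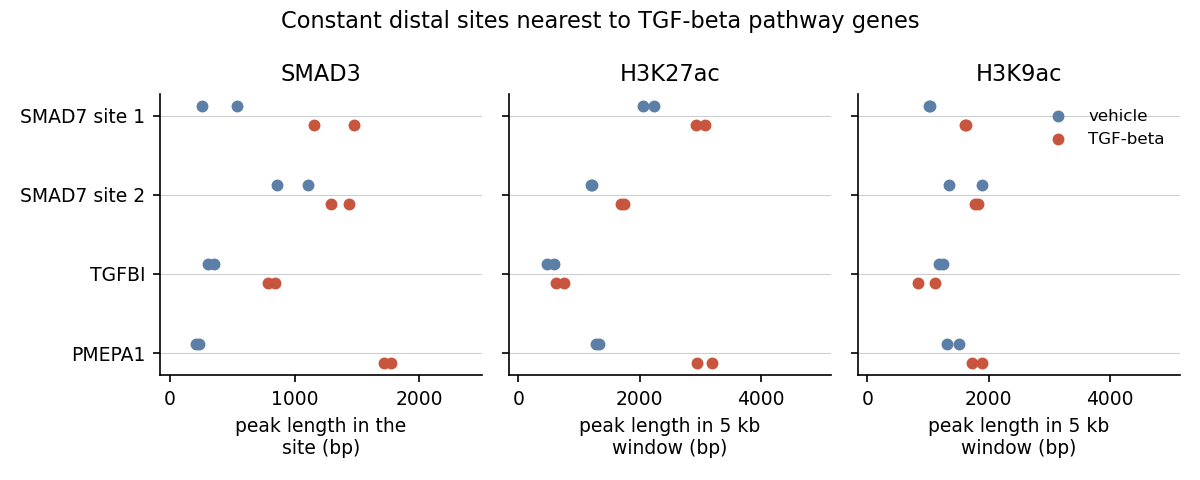
Peak length (horizontal axes, bp) of SMAD3 inside the site and of H3K27ac and H3K9ac in the 5 kb window, per library, at the sites nearest to SMAD7, TGFBI and PMEPA1. SMAD3 points with TGF-beta lie right of the vehicle points in every row, while H3K9ac at TGFBI lies left of them.

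Sites were also taken by the largest shift in score rank between groups, as a description. ITGB6 encodes the integrin subunit that helps to activate latent TGF-beta. At its site (chr2:160204576-160209661) SMAD3 covered 264 and 294 bp with vehicle and 4488 and 4850 bp with TGF-beta, and H3K9ac rose from 2927 and 2414 bp to 3883 and 4487 bp (0.67, adjusted p = 0.0154), a call lost without either TGF-beta library. At a ZNF652 site SMAD3 covered 544 and 585 bp against 1157 and 1170 bp, and H3K27ac rose from 654 and 719 bp to 1762 and 1704 bp (0.99, adjusted p = 0.00246). At an ABR site SMAD3 covered 281 and 300 bp against 1236 and 1157 bp with no acetylation call.

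In the other direction, TNFAIP2 (chr14:103122970-103124016), whose promoter is printed above, held 749 and 1047 bp of SMAD3 with vehicle and 552 and 727 bp with TGF-beta. H3K27ac fell there from 3624 and 3818 bp to 2170 and 2098 bp (-0.88 ± 0.06, adjusted p = 0.00339). H3K9ac fell from 4071 and 3602 bp to 1484 and 1758 bp (-1.09 ± 0.09, adjusted p = 0.00256), and both calls were kept whichever library was left out. KCNAB2, a potassium channel subunit gene, fell in H3K27ac from 1499 and 1301 bp to 664 and 542 bp (-1.13, adjusted p = 0.0103) and in H3K9ac from 1684 and 1326 bp to 656 and 684 bp (-0.90, adjusted p = 0.00828).

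Genes of every list, housekeeping genes included, had a constant distal site more often than the 14.4% of all coding genes. The shares ran from 19.2% to 53.3%. These lists were assembled with earlier results of these data known, so the shares are descriptions. A site was assigned to 14 of the 28 genes listed as TGF-beta and SMAD targets, 12 of 25 AP-1 and immediate early genes (48.0%), 13 of 27 genes of epithelial junctions and keratins (48.1%) and 11 of 25 biliary and epithelial transcription factor genes (44.0%). The share was 5 of 26 (19.2%) for cytokines and chemokines, 5 of 20 for markers of other cells and 5 of 19 (26.3%) for housekeeping genes.

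Acetylation calls at the listed genes are given as counts. Over all sites assigned to a coding gene, H3K27ac rose at 123 and fell at 250 of 3789 tested. H3K9ac rose at 70 and fell at 142 of 3896. Whether any list differs from these shares was not tested. At the 21 sites of TGF-beta and SMAD targets, H3K27ac rose at 1 and fell at 1, and H3K9ac rose at 2 and fell at 1; the median log2 change was -0.01 and 0.09. The rises included the PMEPA1 (H3K27ac) and SMAD7 (H3K9ac) sites above, the H3K27ac fall was at LTBP3 (-0.71), a latent TGF-beta binding protein gene, and the H3K9ac fall at SMAD6 (-0.49), an inhibitory SMAD gene. At the 21 sites of AP-1 and immediate early genes, H3K27ac rose at 4 and fell at 1 and H3K9ac rose at 1. A pair of FOS sites that share a window rose from 1306 and 1579 bp to 2404 and 2428 bp (0.54, adjusted p = 0.0246), and a pair of FOSB sites from 1244 and 1142 bp to 1918 and 2054 bp (0.52, adjusted p = 0.0378), so these 4 calls come from 2 loci. The FOS calls were lost without either TGF-beta library or vehicle replicate 1, and the FOSB calls were not kept in every such fit.

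At the 21 sites of junction and keratin genes, limma called 0 rises in either mark, with 0 sites higher in H3K27ac and 1 in H3K9ac at an unadjusted p under 0.05. H3K27ac fell at 1, a CDH3 (P-cadherin) site (-0.52), and H3K9ac at 3. A CLDN4 site, near a tight junction gene, went from 1286 and 688 bp of H3K9ac to 150 and 220 bp (-1.52, adjusted p = 0.0158), and a site of KRT17, a keratin of basal epithelium, from 3665 and 3693 bp to 1837 and 2270 bp (-0.73, adjusted p = 0.0132). A further KRT17 site fell by 0.45 on the log2 scale. Among biliary and epithelial transcription factor genes, with 23 sites, H3K27ac fell at 1, a FOXA1 site (-0.45). All these falls were lost in at least 1 fit that leaves out a library. Over all lists, the calls kept in each such fit included those at PMEPA1, SNAI2 (H3K27ac), HIF1A, TNFAIP2 and a WNT5B site.

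Among other lists, the 11 sites of epithelial-mesenchymal transition genes included the SNAI2 rise and falls of H3K27ac at 2 sites of WNT5B, a Wnt ligand gene. One went from 1674 and 1813 bp to 1144 and 987 bp (-0.75, adjusted p = 0.00969) and was kept whichever library was left out, and the other from 845 and 1148 bp to 322 and 464 bp (-1.14, adjusted p = 0.0228) and was not. HIF1A, the gene of the oxygen-sensing factor, fell in H3K9ac from 1833 and 2179 bp to 503 and 688 bp (-1.42, adjusted p = 0.0059), a call lost at a higher score minimum. A pair of neighbouring sites at the clock gene PER2 fell in H3K27ac (-0.53 and -0.46) and share most of their windows. Matrix, integrin and cytoskeleton genes had 26 sites, with an H3K27ac fall at MYH9 (-0.52), an H3K9ac fall at COL4A1 (-0.57) and 2 H3K9ac rises. YAP and TEAD targets had 18 sites with 1 H3K27ac fall; H3K9ac had 0 calls by limma, with 2 sites higher and 1 lower at an unadjusted p under 0.05.

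The sites without acetylation formed a small group of their own. At 189 sites (4.21%) no peak of either mark overlapped the site in any of the 8 libraries, against 17.9% of all SMAD3 regions. Of these, 186 had no listed start, and 112 (59.3%) lay within 5 kb of a coding gene end, against 1258 (29.3%) of the other 4299 sites. Median SMAD3 length in them was 303 and 569 bp in vehicle replicates 4 and 5, against 417 and 544 bp at the other sites, so the vehicle libraries differed in direction. In TGF-beta replicates 4 and 5 it was 622 and 627 bp, against 633 and 657 bp. The median lowest score percentile was 10.1 against 44.1. Acetylation could still lie near these sites, and 134 of the 189 had no peak of either mark within 2.5 kb. The MYO1G and SPHK2 sites, whose H3K27ac windows were called above, belong to this group.

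Ribosomal protein genes recurred in this group, a pattern chosen after its values were seen. They were the nearest genes of 12 of the 189 sites (6.35%), namely RPS24 with 2 sites and RPS3, RPS29, RPL19, RPL28, RPL37A, RPL15, RPSA, RPL14, RPL37 and RPS20, against 13 of the other 4299 sites (0.302%). Sites of the group with the highest lowest percentile included RRM2, which encodes a ribonucleotide reductase subunit, with SMAD3 over 3103 and 3886 bp with vehicle and 3632 and 4311 bp with TGF-beta. A site nearest to HSPA1B, a heat shock protein gene 9947 bp away, held 2698 and 3088 bp with vehicle and 3604 and 3334 bp with TGF-beta. SLC3A2, an amino acid transporter subunit gene, held 1538 and 1631 bp with vehicle and 1580 and 1838 bp with TGF-beta. HSPA1B has a near-identical neighbour, but this site lay outside HSPA1B. The sources used here do not give how reads in duplicated sequence were placed.

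Many sites came in clusters. With sites at most 0.0125 Mb apart joined, there were 3524 loci, and 686 loci of at least 2 sites held 1650 sites (36.8%). The densest was a run of 9 sites inside REPS1, a gene of receptor endocytosis, at chr6:138956066-138970135, of which 7 had no acetylation peak in any library while 1 had both marks in all 8. A run of 7 sites lay at chr22:45996477-46037667 by WNT7B, a Wnt ligand gene, all acetylated in at least 1 library.

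By nearest gene, LOC124905135 on chromosome 22 had 12 sites, BCOR, a transcriptional co-repressor gene, 10, and GNG7, REPS1 and BAHCC1 9 each. SMAD3 length summed over the 7 sites of TNS4, which encodes a tensin of focal adhesions, was 4340 and 8536 bp with vehicle and 15474 and 13598 bp with TGF-beta. Over the 8 sites of PRKCH, a protein kinase C gene, it was 6185 and 9206 bp against 16009 and 15701 bp. Over the 8 sites of NR2F2, an orphan nuclear receptor gene, it was 2966 and 4382 bp against 4942 and 4698 bp, all of them acetylated in all 8 libraries and without a call. Over the 7 sites of GSE1 it was 5188 and 6245 bp against 4283 and 5392 bp, where the groups overlapped, and H3K27ac fell at 3 of these sites.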

How the data were processed

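ChIP-seq libraries of SMAD3, H3K27ac and H3K9ac from H69 cells (2 vehicle and 2 TGF-beta libraries each) were analysed; 4 input samples were not used. Per the labels' protocols, chromatin was fixed in 1% formaldehyde for 10 min and sequenced as 51-base reads from both ends. Per the submitters' processing notes, BWA, Picard, MACS2 and bedtools were used on hg38; the sources used here give neither versions nor the caller's cutoff. Each library has its own peak list, deposited by the authors, with a -log10 score per peak, of a p or a q value. The scores are the authors' and served to rank the peaks of one library and as a minimum in an alternative. Sequencing lanes are read from the file headers: TGF-beta replicate 2 of both marks was on lane 8 and the other acetylation libraries on lane 7.

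Gene ends came from RefSeq (19974 coding genes, GRCh38). RefSeq start windows and miRNAs (GRCh38.p14) were matched by position. Covered length in 5000 bp windows was tested with limma 3.58.1 (R 4.3.3) as log2 of length plus 200 bp, with a mean of at least 200 bp, libraries centred on their medians, over all merged regions, with Benjamini-Hochberg adjustment at 0.05; the scripts were tested on simulated data. The shares of sites with a peak were compared by an exact permutation test over libraries. The labels do not say what a shared replicate number means, so no block was used. Other steps used Python 3.11.15, numpy 2.4.6, pandas 2.3.3, scipy 1.17.1 and matplotlib 3.10.9. Files without counts give no counting error, and precision is that of 2 libraries per group.

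The sites and the 12 gene lists were chosen with earlier results of these data known. The rule for named sites took the 12 genes with most sites, the 10 sites with the highest lowest score percentile, the 8 with the largest rise and the 8 with the largest fall in percentile, per mark the 8 largest called changes in each direction whose TGF-beta libraries lay outside the vehicle range (1 site per nearest gene), up to 4 genes per list, the 6 largest clusters, up to 8 sites without acetylation, the 3 on each side of the 1 kb limit, and SMAD7, SKIL, TGFBI, PMEPA1, KRT7, KRT19, SOX9, FOSL2 and JUNB. Some genes that the rule or lists hold are not reported here. Calls at list genes outside it were chosen after their values were seen. Alternatives were other windows, pseudocounts, filters, centring, limma settings, score minimums, equal peak numbers, a replicate block and leaving out each library.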

Additional observations from a re-analysis of the deposited data

How the results depend on the processing

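The number of constant distal sites, 4488, stayed within 1.5 times under every alternative rule and score minimum, from 3118 with a limit of 5 kb to 5711 without vehicle replicate 4, and the small differences in acetylated share kept their direction. The number of H3K27ac calls (418, 140 rises and 278 falls) was 141 with a window of 1 kb on either side (57 and 84), 1045 with 10 kb (321 and 724), 666 with a pseudocount of 1000 bp (477 falls), 272 without centring (102 falls) and 903 with limma's trend and robust options (696 falls). With a score of at least 10 it fell at 171. The number of H3K9ac calls (241, 82 and 159) was 136 (34 and 102), 498 (148 and 350), 433 (135 and 298), 59 (17 and 42) and 437 (148 and 289) in the same order, and 147 (51 and 96) at the higher score. Leaving out 1 library gave 106 to 277 H3K27ac calls (34 to 128 rises, 72 to 149 falls) and 67 to 309 H3K9ac calls (19 to 134 rises, 42 to 205 falls). Each library left out moved the H3K27ac falls by over 1.5 times; for H3K9ac both TGF-beta libraries moved rises and falls, and vehicle replicate 1 the rises (134). These fits hold fewer samples, and a lone library is assumed to vary like the others; the cause of the other shifts was not tested. With the replicate block there were 115 rises and 227 falls of H3K27ac and 77 and 162 of H3K9ac. The deviations of same-numbered libraries correlated at -0.0235 for H3K27ac and -0.094 for H3K9ac. With 2 libraries per group, and TGF-beta replicate 2 on another lane, this does not settle what a shared number means. Of 83 calls at named sites, 42 were lost without centring, 44 of the 77 tested with the 1 kb window (among them H3K9ac at SMAD7, TNFAIP2, ABCB8 and GNG7 and H3K27ac at PMEPA1 and KCNAB2), 31 of 75 at the higher score and 12 with the replicate block. Direction turned at NFKBIA (from -0.96 to 0.031) and LATS2 (from -0.33 to 0.75) in H3K27ac at the higher score, and at ATP10A (from 0.39 to -0.032) with the 1 kb window. Depth is unknown, and windows near 5000 bp cannot show a rise.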
